A study of Mus musculus with 2 samples.

Results

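The purine synthesis enzymes are the 10 genes Ppat, Gart, Pfas, Paics, Adsl, Atic, Impdh1, Impdh2, Gmps and Adss, whose products make inosine monophosphate (IMP) from phosphoribosyl pyrophosphate (PRPP) and then turn IMP into AMP and GMP. They were chosen by gene symbol, and all 10 were found among the 23284 genes of the RNA-seq tables. Expression was measured in leukemic stem cells (LSCs) of mice with a chronic myeloid leukemia (CML)-like disease, with 1 library from WT and 1 library from STAP-1 KO cells, both on the C57BL/6J background. STAP-1 is an adapter protein that binds signaling molecules, and its KO is a targeted disruption of the gene in the whole animal. In both groups, LSK cells of the donor (lineage-negative, Sca-1+ and c-Kit+) were transduced with a retrovirus that carries human BCR-ABL and GFP, and transplanted into lethally irradiated C57BL/6SJL recipients. GFP+ CD45.2+ LSK cells were sorted at day 11 after the first transplantation, from mice of a cohort aged 8 to 14 weeks. Whether a library held cells of 1 mouse or of several was not given in the sources used here.

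Since each genotype had 1 library, genotype cannot be told apart from mouse, sort or library preparation, and no test was possible. Values are FPKM, which scales the fragments of a gene to its exon length and to the size of the library, so that levels can be compared between genes per length. The spacing of low values gave an effective depth of 7500000 reads for the WT library and 10470000 reads for the STAP-1 KO library, and the 95% intervals given for ratios are built from these depths and cover counting error only. They are exact binomial intervals for single genes and Poisson intervals on the log scale for sums and for changes between ratios. Stap1 itself had 62.0 FPKM in WT LSCs and 0.309 FPKM in STAP-1 KO LSCs. Kit and Ly6a, the genes of the c-Kit and Sca-1 antigens used in the sort, and the progenitor gene Cd34 were detected in both libraries. Kit had 468 FPKM in WT and 30.1 FPKM in STAP-1 KO LSCs, Ly6a 285 and 106 FPKM, and Cd34 281 and 194 FPKM.

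Purine nucleotides are building blocks of DNA and RNA, and ATP and GTP carry energy and signals. Dividing cells make purines de novo, adding atoms from glutamine, glycine, aspartate, formyl-folate and carbon dioxide to PRPP until the ring of IMP is closed, and they also salvage free bases. In vertebrates several of the steps are carried by multifunctional proteins, and IMP stands at a fork with IMP dehydrogenase at the entry to GMP and adenylosuccinate synthetase at the entry to AMP.

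Most purine synthesis genes were higher in STAP-1 KO LSCs. By level the order in WT LSCs was Paics, Adsl, Gart, Impdh1, Adss, Gmps, Ppat, Atic, Pfas and Impdh2, and in STAP-1 KO LSCs Paics, Adsl and Gart again came first. Without replicates the order of close neighbours has no spread to be read against. Of the 10 genes 8 had a ratio above 1, and 3 of them, Paics, Adsl and Impdh2, were past the cut-off of a 2-fold higher level. None was 2-fold lower. Among the 12507 genes with at least 0.1 FPKM in both libraries, which include all 10 enzymes, 12.3% were at least 2-fold higher and 22.9% were at least 2-fold lower. At a 1.5-fold cut-off 7 of the 10 enzymes were higher, beside 25.6% of all genes compared, at a 4-fold cut-off none was, beside 2.4%, and with a floor of 5 FPKM in both libraries 2 were at least 2-fold higher, beside 9.94%. The summed level of the 10 genes was 497 FPKM in WT LSCs and 870.1 FPKM in STAP-1 KO LSCs, a ratio of 1.75 (95% counting interval from 1.71 to 1.79). These sums were 0.0766% and 0.144% of all FPKM. On the scale of log2((STAP-1 KO + 0.1)/(WT + 0.1)), which is used for all log2 ratios below, the median of the 10 genes was 0.77, and that of all 10974 genes whose mean over the libraries reached 1 FPKM was -0.04. Of the latter, 48.3% had a log2 ratio above 0. The log2 ratios of the enzymes ran from -0.19 for Atic to 1.81 for Impdh2, with an SD of 0.60 over the 10 genes against 1.41 over all those genes.

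**Figure D1:**
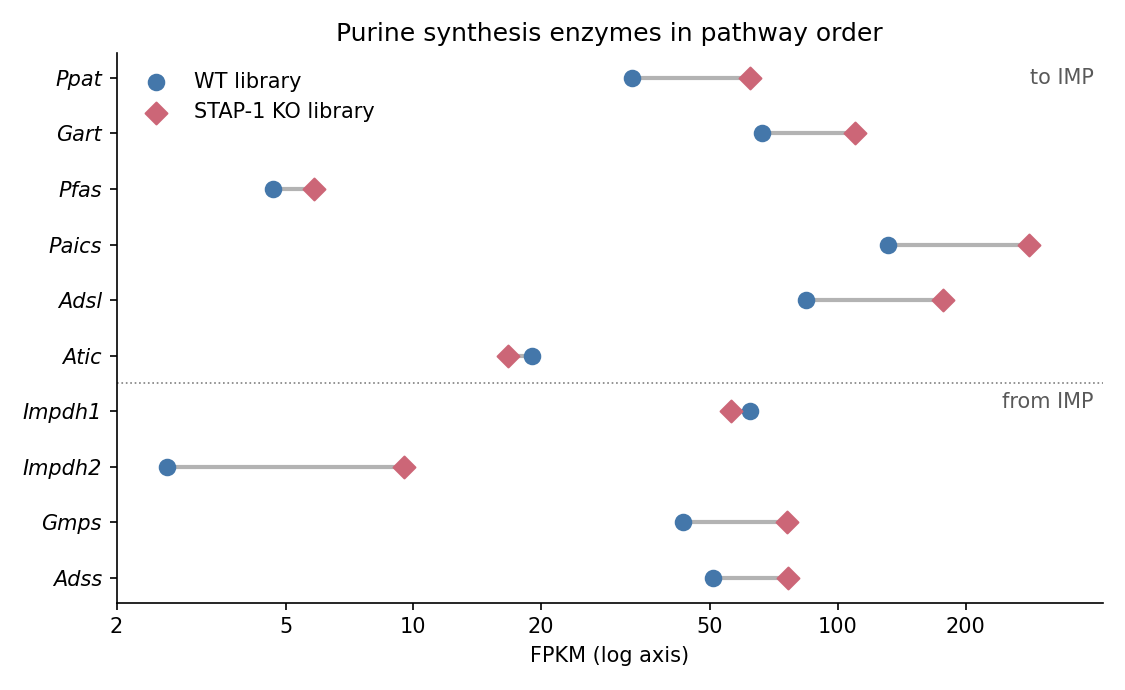
Level of each enzyme in FPKM (log axis) in the WT (circles) and STAP-1 KO (diamonds) libraries, 1 library each, in pathway order from top to bottom. The STAP-1 KO value lies to the right for 8 of the 10 genes, and to the left for Atic and Impdh1.

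The first enzyme, amidophosphoribosyltransferase, commits PRPP to the pathway and is its main point of feedback control. Its gene Ppat, which spans 76913249 to 76951578 of chromosome 5 (minus strand, GRCm38/mm10), had 32.7 FPKM in WT LSCs and 62.2 FPKM in STAP-1 KO LSCs. The ratio of 1.90 (counting interval from 1.76 to 2.05) lay just below the cut-off.

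Gart encodes a protein with 3 activities, glycinamide ribonucleotide synthetase, formyltransferase and aminoimidazole ribonucleotide synthetase, which act at steps 2, 3 and 5. It spans 91621186 to 91646952 of chromosome 16, minus strand. Its level was 66.2 FPKM in WT LSCs and 109 FPKM in STAP-1 KO LSCs, a ratio of 1.65 (1.56 to 1.75). An antisense gene, Gm15964, covers 19.7% of its exon bases on the other strand, and the cDNA kit does not mark strand.

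Pfas encodes the glutamine-using enzyme of step 4, which adds a nitrogen before the first ring closes. It is on chromosome 11, minus strand, from 68985697 to 69008460. With 4.68 FPKM in WT LSCs and 5.83 FPKM in STAP-1 KO LSCs, Pfas was among the 2 genes of lowest level in both. Its ratio of 1.25 had an interval from 1.05 to 1.48 when reads were estimated with its longest coding transcript of 6373 bases, and from 0.835 to 1.84 with the median coding transcript of 1421 bases. A difference between the libraries was thus at the limit of the depth for Pfas.

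Paics encodes the bifunctional protein of steps 6 and 7, which carboxylates the ring precursor and joins aspartate to it. It starts head to head with Ppat on the plus strand of chromosome 5 (from 76951307 to 76967509), and the first exons of the pair overlap by 272 bases, which make up 8.67% of the exon bases of Paics and 6.15% of those of Ppat. Reads from this overlap cannot be assigned to either gene without strand. Paics was the most abundant of the 10 genes in both libraries, with 132 FPKM in WT LSCs and 281 FPKM in STAP-1 KO LSCs. The ratio of 2.14 (2.04 to 2.24) lay above the cut-off over its whole counting interval, but Paics fell below the cut-off under each correction for transcript length given below.

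Adenylosuccinate lyase, encoded by Adsl, acts at step 8 and again on the way from IMP to AMP, and releases fumarate in both reactions. Adsl is on chromosome 15, plus strand, from 80948490 to 80970946. It had 84.3 FPKM in WT LSCs and 177 FPKM in STAP-1 KO LSCs, and was the gene of second highest level in both. Its ratio was 2.10 (2.00 to 2.20). Ppat, just below the cut-off, and Adsl, just above it, had counting intervals that overlap.

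Atic encodes the bifunctional enzyme that adds the last formyl group and closes the ring to IMP at steps 9 and 10, and lies on the plus strand of chromosome 1 from 71557150 to 71579631. Unlike its upstream partners it was not higher in STAP-1 KO LSCs, with 19.0 FPKM in WT LSCs and 16.7 FPKM in STAP-1 KO LSCs. The ratio was 0.877, and its interval from 0.763 to 1.01 includes no difference. The level of Paics relative to Atic was 6.91 in WT LSCs and 16.8 in STAP-1 KO LSCs, and that of Adsl relative to Atic was 4.43 and 10.6. Among the upstream genes the deposited values shifted less, and most for Paics relative to Pfas, which was 28.1 in WT and 48.2 in STAP-1 KO LSCs. This shift turned direction after correction for the length of the longest coding transcript, with log2 ratios of 0.83 for Paics and 1.28 for Pfas. Gart had 2.03 times the level of Ppat in WT LSCs and 1.76 times in STAP-1 KO LSCs, and Paics had 4.03 times and 4.52 times the level of Ppat. For the 6 genes that lead to IMP the median log2 ratio was 0.83.

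**Figure D2:**
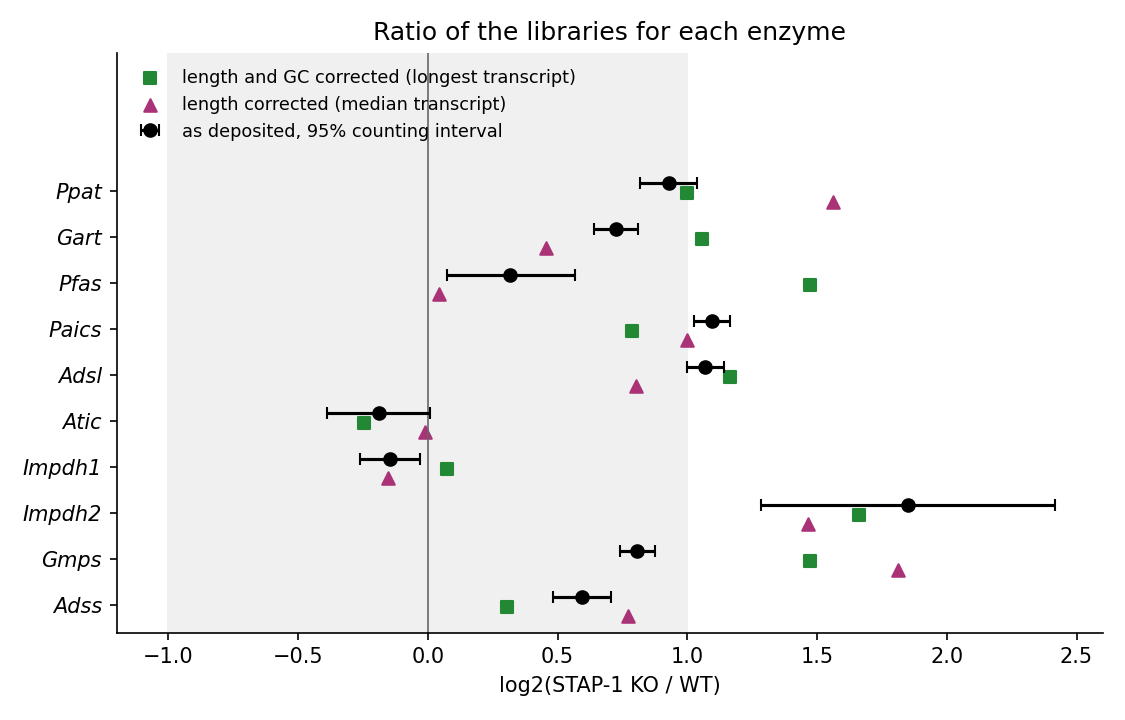
Log2 ratio of the STAP-1 KO library over the WT library for each enzyme. Black points show the deposited values without a pseudocount, with 95% intervals for counting error only, squares show values after correction for transcript length and GC content with the longest coding transcript, triangles show values after correction for the median coding transcript length, and the grey band marks less than a 2-fold difference. Impdh2 and Adsl lie beyond or at the edge of the band by the deposited values, Paics also, and Atic stays at or below 0 in all 3 cases.

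The fork after IMP was uneven between isozymes. IMP dehydrogenase oxidizes IMP to XMP, the rate-limiting step toward GMP, and is encoded by Impdh1 (chromosome 6, minus strand, from 29200434 to 29216364) and Impdh2 (chromosome 9, plus strand, from 108560286 to 108565584). Impdh1 had 62.0 FPKM in WT LSCs and 56.0 FPKM in STAP-1 KO LSCs, a ratio of 0.903 (0.834 to 0.978), so that the gene of rank 4 among the 10 in WT LSCs had rank 7 in STAP-1 KO LSCs. Impdh2 had 2.64 FPKM in WT and 9.51 FPKM in STAP-1 KO LSCs. Its ratio of 3.61 was the highest of the 10 genes and higher than that of 97.4% of all genes that reached a mean of 1 FPKM, but it rests on about 33 and 164 estimated reads and its interval ran from 2.44 to 5.34. With the median coding transcript in place of the longest, it rests on about 15 and 75 reads, with an interval from 2.04 to 6.72.

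Impdh1 exceeded Impdh2 by 23.5 times in WT LSCs and by 5.89 times in STAP-1 KO LSCs, so Impdh2 made up 4.08% and 14.5% of the summed isozymes. The change in the Impdh2 to Impdh1 ratio was 3.99-fold (counting interval from 2.72 to 5.86). The sum of both was 64.6 FPKM in WT LSCs and 65.5 FPKM in STAP-1 KO LSCs, a ratio of 1.01. The level of Impdh2 is uncertain. Of the 75-base stretches of its longest coding transcript, the length of the reads, 69.3% also occur in the processed pseudogene Impdh2-ps, and how reads that map to both places were counted was not given in the sources used here. No 75-base stretch of Impdh1 occurs in a transcript of another gene of GENCODE M21. Without Impdh2, 2 of the other 9 enzymes were at least 2-fold higher, beside 12.3% of all genes compared, and the median log2 ratio of those 9 was 0.72.

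GMP synthetase, which uses glutamine to turn XMP into GMP, is encoded by Gmps on chromosome 3, plus strand, from 63976106 to 64022579. Its level was 43.3 FPKM in WT LSCs and 75.7 FPKM in STAP-1 KO LSCs, and the ratio of 1.75 (1.67 to 1.83) was below the cut-off. The transcripts of Gmps are long, and under each length correction its log2 ratio lay above the cut-off, between 1.47 and 1.81. On the adenine side, Adss encodes the adenylosuccinate synthetase that is expressed in most tissues (chromosome 1, minus strand, from 177762962 to 177796511). Adss had 50.7 FPKM in WT LSCs and 76.5 FPKM in STAP-1 KO LSCs, a ratio of 1.51 (1.40 to 1.63). The gene of the other isozyme, Adssl1, known from muscle, was also detected. Adssl1 had 11.6 FPKM in WT LSCs and 44.4 FPKM in STAP-1 KO LSCs, a ratio of 3.81 (3.19 to 4.62), and made up 18.7% and 36.7% of the summed synthetase level.

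Summed over its isozymes, adenylosuccinate synthetase had 62.3 FPKM in WT LSCs and 121 FPKM in STAP-1 KO LSCs, a ratio of 1.94, whereas the summed IMP dehydrogenase level was nearly the same by the deposited values. The level of IMP dehydrogenase relative to Adss was 1.27 in WT LSCs and 0.856 in STAP-1 KO LSCs, a change of 0.672-fold (counting interval from 0.602 to 0.750). Corrected for length and GC content this change was 0.924-fold, outside that interval and near 1, with the summed IMP dehydrogenase at a ratio of 1.14 and Adss at 1.24, whereas with a correction for length alone it was 0.628-fold by the longest and 0.573-fold by the median coding transcript. The change in the Impdh2 to Impdh1 ratio was between 3.09-fold and 3.59-fold under these corrections. With Adssl1 added to Adss the level of IMP dehydrogenase relative to the sum was 1.04 and 0.542 as deposited, a change of 0.523-fold, which was 0.6996-fold after the length and GC correction.

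**Figure D3:**
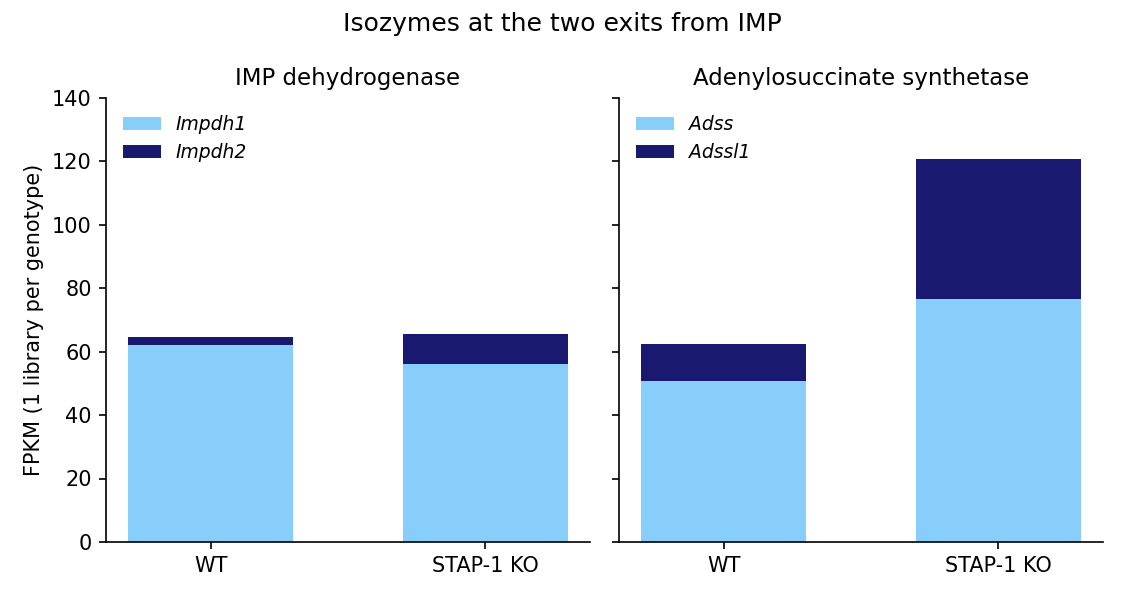
Stacked levels in FPKM of the isozymes that draw on IMP, in the WT and STAP-1 KO libraries (1 library each, no error bars). IMP dehydrogenase sums to 64.6 and 65.5 FPKM, with a larger share of Impdh2 in STAP-1 KO LSCs, and adenylosuccinate synthetase sums to 62.3 and 121 FPKM.

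The letters upstream of the genes were read from RefSeq promoter windows of GRCm38.p6, which span 250 bases before to 50 bases after a start and were given for 9 of the 10 genes, Pfas being the exception. The E-box CACGTG reads the same on both strands and is bound by MYC with MAX and by other factors of that class. The motif was searched to describe the letters, since the 10 genes are read as a group. Whether it has a part in the ratios was not tested. The motif was found in 3 of the 9 genes and in 8.09% of the 27025 genes of the table, which were not selected by expression. The 3 matches are shown with the motif in capitals, on the plus strand, at chr5:76951087-76951116 for Paics, chr1:71557137-71557166 for Atic and chr9:108560314-108560343 for Impdh2.
Paics: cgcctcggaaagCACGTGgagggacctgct
Atic: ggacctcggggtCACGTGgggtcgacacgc
Impdh2: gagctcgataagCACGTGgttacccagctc
The motif begins 203 bases before the start in Paics, 7 bases before it in Atic and 110 bases before it in Impdh2. In GENCODE M21 the match of Paics lies in an exon of Ppat, with which it starts head to head, and the other matches overlap an exon of their own gene. The 3 genes with a match had log2 ratios of 1.10, -0.19 and 1.81, which by the deposited values include both the highest and the lowest of the 10 enzymes. With a correction for length alone Gmps was highest and Impdh1 lowest. The related letters CACGCG, searched on both strands, were in none of the 9 genes and in 10.5% of all genes of the table.

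The ratio of these libraries varied with transcript length, and this touched the enzymes unequally. Across 10865 genes Spearman's rank correlation of the log2 ratio with the length of the longest coding transcript was -0.40, a description across genes of 1 pair of libraries. In the bin of the longest transcripts, which holds Gmps with 8105 bases, the median log2 ratio was -1.0, and in the bin of Pfas it was -0.97. In the bin of Impdh2, with 1858 bases, the median was 0.28, and in that of Paics 0.26. When the medians of 20 length bins and then of 20 GC bins were subtracted, the log2 ratio of Gmps went from 0.81 to 1.47 and that of Pfas from 0.31 to 1.47, while that of Paics went from 1.10 to 0.79 and that of Adss from 0.59 to 0.30.

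After that correction 5 of the 10 enzymes were at least 2-fold higher, beside 11.4% of the 12360 genes compared, and the median of the enzymes was 1.03. The genes past the cut-off were then Gart, Pfas, Adsl, Impdh2 and Gmps. The corrected value depends on which transcript stands for a gene. With a correction for length alone, the log2 ratio of Pfas was 1.28 by the longest and 0.04 by the median coding transcript, that of Gart 0.87 and 0.46, and that of Adsl 1.21 and 0.80, whereas that of Ppat was 1.15 and 1.56 and that of Paics 0.83 and 0.9985. With the median transcript 3 of the 10 enzymes (Ppat, Impdh2 and Gmps) were at least 2-fold higher, beside 12.1% of all genes compared. Adsl, Impdh2, Gmps, Ppat, Gart, Paics, Pfas and Adss had log2 ratios above 0 in each of these cases, and Atic had log2 ratios below 0 in each. Impdh1 had -0.15 as deposited and 0.07 after the length and GC correction.

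**Figure D4:**
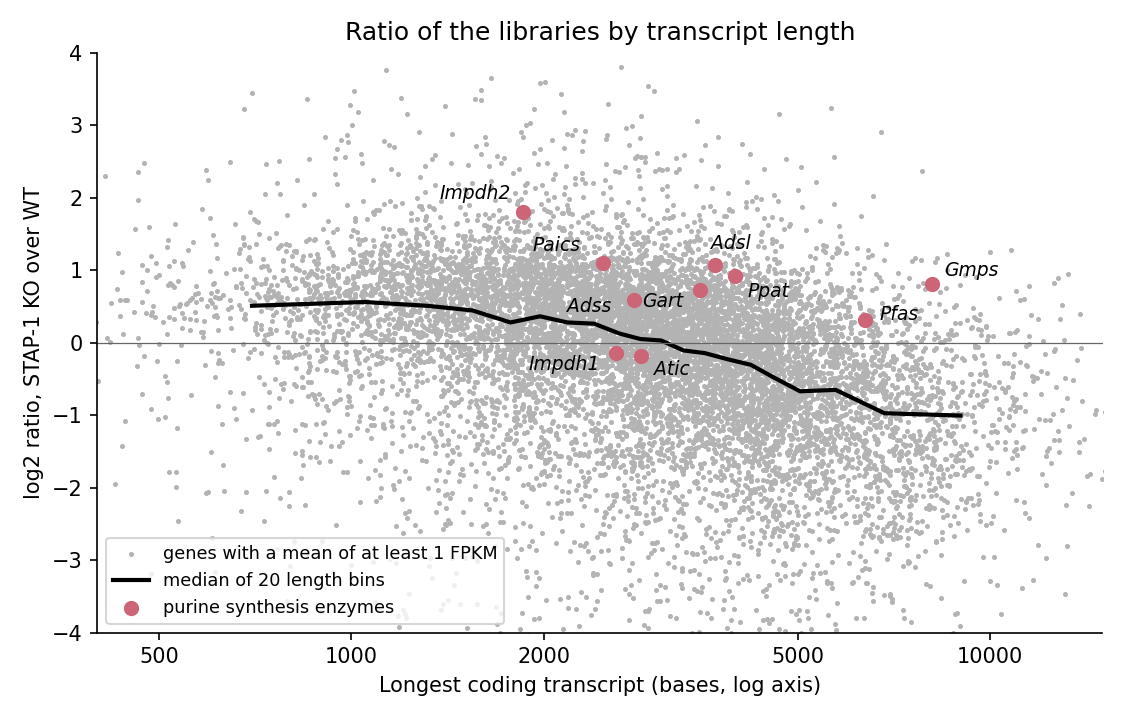
Log2 ratio of the STAP-1 KO over the WT library against the length of the longest coding transcript (bases, log axis). Grey points are genes that reached a mean of 1 FPKM (those outside the axes are not drawn), the line joins the medians of 20 length bins, and the red points are the 10 enzymes. Ppat, Pfas, Adsl, Impdh2 and Gmps lie above the line by more than 1, whereas Atic and Impdh1 lie below it.

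The reactions that feed the pathway were compared in the same way. PRPP synthetase makes the starting compound, and all 4 genes of its catalytic and associated subunits had log2 ratios above 0, with a median of 1.05. Prps1, a catalytic subunit, had 58.9 FPKM in WT LSCs and 137 FPKM in STAP-1 KO LSCs, and Prps2, the other one, had 19.5 and 35.9 FPKM. The associated protein gene Prpsap2 had 4.24 and 10.3 FPKM, with 22.1% of its 75-base stretches found in transcripts of other genes. Prps1 and Prpsap2 were the 2 of the 4 genes past the cut-off, which 12.3% of all genes compared passed in this direction. After the length and GC correction neither was, with log2 ratios of 0.69 for Prps1 (1.21 as deposited) and 0.86 for Prpsap2 (1.27), the value of Prpsap1 turned from 0.08 to -0.10, and the median of the list was 0.74.

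The formyl groups of steps 3 and 9 come from folate. Of 10 genes for the supply and use of formyl-folate, 9 had a mean of at least 1 FPKM, and 3 of these were at least 2-fold higher and 1 was at least 2-fold lower (12.3% and 22.9% of all genes compared), with a median log2 ratio of 0.49. Shmt1, the cytosolic serine hydroxymethyltransferase that loads folate with carbon, had 23.9 FPKM in WT LSCs and 81.3 FPKM in STAP-1 KO LSCs. Aldh1l1, which oxidizes formyl-folate and so removes it, went the other way with 13.9 and 2.49 FPKM. Mthfd1, the trifunctional enzyme that makes cytosolic formyl-folate, had 116 and 120 FPKM, a ratio of 1.03 (0.978 to 1.08), and is given here although the rule for named genes did not select it. Mthfd2l, a mitochondrial enzyme gene past the cut-off upwards, was also outside that rule and had 1.96 and 5.16 FPKM. After the length and GC correction the median of the list was 0.38, and Mthfd2l went from 1.35 to 0.91 and was no longer past the cut-off.

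Salvage returns free bases and nucleosides to nucleotides. None of 8 salvage genes passed the 2-fold cut-off in either direction, beside 12.3% higher and 22.9% lower among all genes compared. With so few genes the difference from these shares is small. The median log2 ratio of the 8 genes was 0.42. Hprt, which salvages hypoxanthine and guanine, had 184 FPKM in WT LSCs and 338 FPKM in STAP-1 KO LSCs, and Dck, a deoxynucleoside kinase, had 35.2 and 66.9 FPKM. Ada, adenosine deaminase, was lower with 68.1 and 36.4 FPKM, a ratio of 0.534 (0.478 to 0.597). After the length and GC correction the median of the list was -0.01, and the log2 ratio of Hprt went from 0.87 to 0.10, that of Dck from 0.92 to 0.66 and that of Ada from -0.90 to -1.08.

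For the breakdown and interconversion of purine nucleotides, 12 of 14 genes had a mean of at least 1 FPKM, of which 1 was at least 2-fold higher and 3 were at least 2-fold lower. These counts lie near the shares of 12.3% and 22.9% over all genes compared. The median log2 ratio was -0.11. Gda, which deaminates guanine, had 14.7 FPKM in WT LSCs and 3.56 FPKM in STAP-1 KO LSCs, and Ampd3, an AMP deaminase that returns AMP to IMP, had 11.3 and 3.80 FPKM. The third gene that was lower, Samhd1, which hydrolyses deoxynucleotide triphosphates, was outside the rule for named genes and had 41.7 and 20.4 FPKM. Itpa, which clears inosine triphosphate, was higher with 21.6 and 48.4 FPKM, although 26.4% of its 75-base stretches are shared with a pseudogene. After the length and GC correction Itpa went from 1.16 to 0.78 and Samhd1 from -1.03 to -0.80, both then short of the cut-off, and the median of the list was -0.14.

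Of 11 nucleotide kinase genes that reached a mean of 1 FPKM, 3 were at least 2-fold higher and 1 was at least 2-fold lower (12.3% and 22.9% of all genes compared), with a median log2 ratio of 0.65. All 3 that were higher encode members of the nucleoside diphosphate kinase family. Nme4 had 39.3 FPKM in WT LSCs and 93.8 FPKM in STAP-1 KO LSCs, and Nme6 had 30.7 and 71.4 FPKM. Nme3 had 9.34 and 29.9 FPKM, and 88.0% of its 75-base stretches are shared with transcripts annotated to Mrps34. Ak1, an adenylate kinase and the gene that was lower, had 4.40 and 1.47 FPKM and was outside the rule for named genes. Guk1, which phosphorylates GMP and was likewise not selected by the rule, had 74.97 and 119 FPKM. After the length and GC correction the median of the list was 0.30, Nme6 went from 1.22 to 0.75 and was no longer past the cut-off, and Nme4 lay at the cut-off itself.

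**Figure D5:**
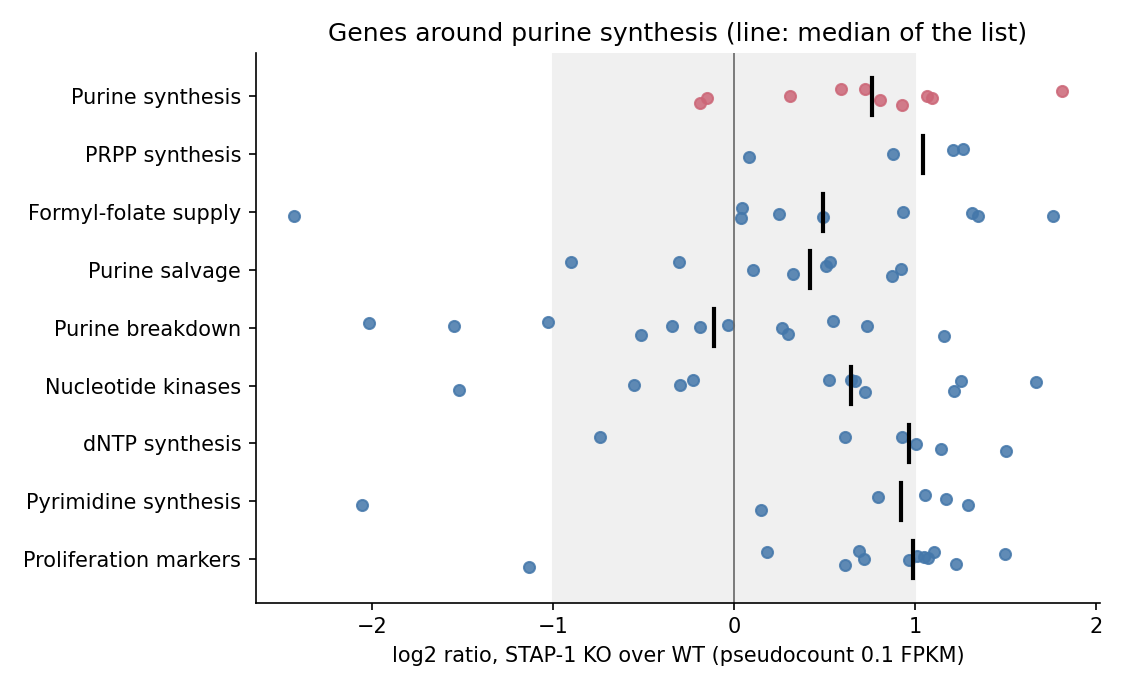
Log2 ratio (pseudocount 0.1 FPKM) of each gene with a mean of at least 1 FPKM in the purine synthesis list (red), in the lists of neighbouring reactions and in the proliferation markers (blue), with the median of each list as a black line and the band of less than a 2-fold difference in grey. The vertical scatter within a list is only for visibility, and the median is above 0 in every list except purine breakdown, where it is -0.11.

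Genes that mark other properties of the sorted cells also differed between the libraries. Of 12 proliferation marker genes, 6 were at least 2-fold higher and 1 was at least 2-fold lower in STAP-1 KO LSCs (12.3% and 22.9% of all genes compared), with a median log2 ratio of 0.99 and a summed level of 1023 and 1911 FPKM. The gene that was lower, Mki67, went from -1.13 to -0.20 after the length and GC correction, Ccnb1 (1.05 to 0.63) and Pcna (1.01 to 0.43) were then short of the cut-off, Mcm6 (0.97 to 1.19) was past it, and the median of the list was 0.81. These 4 genes were named after their values were seen. In the study, cell cycle status did not differ significantly between LSCs of the genotypes by Ki67 staining. BrdU uptake in GFP+ Lin- c-Kit+ cells did not differ significantly either. Those are measures of protein and of DNA synthesis, and not of RNA. All 12 mast cell and basophil markers were at least 2-fold lower, and their sum was 9.09% of all FPKM in WT LSCs and 1.14% in STAP-1 KO LSCs. Of 8 neutrophil primary granule markers 7 were at least 2-fold higher, with summed levels of 1462 and 6005 FPKM. Of 9 erythroid markers 1 was at least 2-fold higher and 4 were at least 2-fold lower (12.3% and 22.9% of all genes compared). Their sums were 3502 and 2120 FPKM. The higher one was Hba-a1 (34.8 and 380 FPKM), whereas Hba-a2, the other alpha-globin gene listed, was lower (773 and 15.9 FPKM). How reads were divided between these 2 genes was not given, so their opposite calls may not be independent. Of 7 megakaryocyte markers 1 was higher and 2 were lower by that cut-off (201 and 135 FPKM), near the shares of 12.3% and 22.9% over all genes. After the length and GC correction Vwf, a lower gene, went from -1.15 to 0.07, and Ppbp, the higher one, from 1.81 to 1.01. Of 7 macrophage and monocyte markers 4 were higher and 2 were lower (187 and 231 FPKM), beside the same shares. Lyz2, 1 of the 4 higher genes, went from 1.38 to 0.83 after that correction. Hba-a1, Hba-a2, Vwf, Ppbp and Lyz2 were likewise named after their values were seen. The B cell markers summed to 3.78 and 19.2 FPKM, nearly all from Cd79b (3.10 and 17.8 FPKM), with Ebf1 and Pax5 listed at 0 in both libraries. The T cell markers summed to 15.7 and 49.3 FPKM, mostly from Lck (11.8 and 41.9 FPKM). Whether these differences have a part in the ratios of the purine synthesis genes was not tested, and in such bulk samples a smaller number of cells of a type and less RNA per cell cannot be told apart.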

How the data were processed

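RNA-seq was performed on sorted WT and STAP-1 KO CML LSCs (1 library each). Per the study's methods the authors aligned single-end reads of 75 bases to mm10 (TopHat2 2.0.13 and Bowtie2 2.2.3 in the submitters' processing notes) and deposited FPKM values made by Cuffnorm (Cufflinks 2.2.1). The annotation, the library scaling and the handling of reads with several matches are not given in the sources used here.

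Ratios were computed in Python 3.11.15 (numpy 2.4.6; pandas 2.3.3; scipy 1.17.1), and matplotlib 3.10.9 drew the figures. A gene counted as past the cut-off at a 2-fold difference when each library had 0.1 FPKM or more, and log2 ratios used a pseudocount of 0.1 FPKM. Symbols were matched to GENCODE M21 (GRCm38, 20911 as written, 1901 through an older symbol, 472 unmatched). Depth was fitted to the steps of FPKM values below 0.3 in genes with 1 transcript, with 208 bases taken off each transcript. Of these values 47.4% (WT, 321 genes) and 49.0% (STAP-1 KO, 390 genes) were whole reads to within 0.01, and the others were not. The depths and the 208 bases were chosen to make these shares as high as possible. Chance gives 2% at 1 fixed setting, which is not the share to expect from the best of many settings. At 2000 bases, 3 reads are 0.223 and 0.160 FPKM. Intervals for single genes are exact (Clopper-Pearson). The steps were tested on simulated data. No p-value was computed.

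The enzymes and the lists were chosen with earlier results of these data known. The named genes are the 10 enzymes, Stap1 and, per neighbouring list, up to 3 genes with the largest log2 ratio in absolute value at a pseudocount of 1 FPKM. Not every gene selected in this way is reported here. Of the listed symbols, Ak6 and Azu1 and the second adult beta-globin symbol could not be matched. Alternatives changed the pseudocount, the scaling, the floor, the cut-off, the enzymes included and a correction for length and GC content of the transcript. The correction by median transcript length and the count without Impdh2 were added after seeing the data. So were the branch ratios corrected for length and GC content or by the median coding transcript. The ratio of IMP dehydrogenase to Adss corrected for length by the longest coding transcript was planned.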

Additional observations from a re-analysis of the deposited data

How the results depend on the processing

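Only 1 library stands behind each genotype, so that no setting can replace a replicate. No paired analysis was possible because the result comes from no test. The number of enzymes at least 2-fold higher was 3 as deposited. It was 5 after the length correction (beside 11.5% of all genes), 5 after the length and GC correction (11.4%) and 3 after the length correction by the median coding transcript (12.1%). It was 4 with scaling to the summed FPKM (15.1%) or by the trimmed mean (14.9%), 2 at a floor of 5 FPKM (9.94%), 7 at a 1.5-fold cut-off (25.6%) and 0 at a 4-fold cut-off (2.4%). The median log2 ratio of 0.77 was 0.87 with scaling to the summed FPKM and 0.87 with a trimmed mean of ratios, 1.01 after the length correction, 1.03 after the length and GC correction and 0.79 after that by the median coding transcript. The ratio of the summed levels, 1.75, was 1.80 with scaling to the median ratio, 1.88 to the summed FPKM and 1.88 with the trimmed mean, and it was 1.61 without Paics, 1.68 without Adsl and 1.87 without Impdh1. The change of IMP dehydrogenase relative to Adss, 0.672-fold, was 0.924-fold after the length and GC correction and 0.573-fold after the length correction by the median coding transcript. Across the 90 values of single enzymes under alternatives, 1 changed sign, which was that of Impdh1 after the length and GC correction, and 29 moved by more than their counting interval. The 4 scalings shifted the STAP-1 KO values by at most 0.10 on the log2 scale. With 33 and 164 estimated reads, the depth limits Impdh2 most among the 10 enzymes.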

Other observations

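Pyrimidine synthesis, the parallel route to the other nucleotides, was described with the same cut-off. Of its 6 genes 3 were at least 2-fold higher in STAP-1 KO LSCs and 1 was at least 2-fold lower (12.3% and 22.9% of all genes compared), with a median log2 ratio of 0.93. Umps, which makes UMP, had 48.2 FPKM in WT LSCs and 118 FPKM in STAP-1 KO LSCs. Ctps, a CTP synthetase, had 27.5 and 62.1 FPKM. The third gene, Dhodh, encodes the mitochondrial dihydroorotate dehydrogenase, was outside the rule for named genes and had 22.0 and 45.9 FPKM. Cad, whose large protein starts the route, had 38.2 and 9.13 FPKM, a log2 ratio of -2.05 that was -0.77 after the length and GC correction. The same correction took Ctps from 1.17 to 0.96 and Dhodh from 1.06 to 0.91, which left Umps (1.29 to 1.39) as the gene past the cut-off, beside 11.4% of all genes after that correction, and the median was 0.83.

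Of 6 genes for deoxynucleotide synthesis 3 were at least 2-fold higher and none was 2-fold lower (12.3% and 22.9% of all genes compared), with a median log2 ratio of 0.97. Dut, which removes dUTP, had 56.2 FPKM in WT LSCs and 159 FPKM in STAP-1 KO LSCs, Dtymk, the dTMP kinase, had 117 and 258 FPKM, and Tyms, thymidylate synthase, had 25.5 and 51.4 FPKM. The subunit genes of ribonucleotide reductase, which the rule for named genes did not select, did not all go one way. Rrm2 had 177 and 337 FPKM and Rrm1 had 155 and 237 FPKM, whereas Rrm2b, the subunit that acts outside S phase, had 4.34 and 2.55 FPKM. After the length and GC correction the median was 0.61, and of the 3 genes Dut (then 1.13) stayed past the cut-off, whereas Dtymk (1.14 to 0.54) and Tyms (1.01 to 0.90) did not.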
